A study of Mus musculus with 8 samples.

Results

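Chromatin accessibility was compared between MPP3 and MPP4, the myeloid-biased and the lymphoid-biased multipotent progenitors of the mouse bone marrow. The data were ATAC-seq libraries, in which a transposase cuts open DNA and the density of cuts reports how accessible a site is. The members were the accessible regions (peaks) found in both cell types: each MPP3 peak was paired with the MPP4 peak that shared the most bases with it, 1 bp or more, one to one. This gave 65858 shared peaks of the 87642 MPP3 peaks and 86952 MPP4 peaks, which is 75.1% and 75.7% of them. The rule used positions only, so that the difference in level between the cell types was free to take either sign.

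The study held 8 libraries, 4 for each cell type, and each library came from 5000 sorted cells of C57BL/6 mice. By the labels every mouse carried floxed Ebf1 alleles. In each cell type 2 libraries were from mice without Cre (Ebf1fl/fl Tie2Cre +/+, called WT) and 2 from mice with Cre (Ebf1fl/fl Tie2Cre +/cre, called Ebf1 KO). The Tie2 promoter drives Cre in endothelial cells and in the blood lineages that arise from them, so that the deletion is not limited to these progenitors. The study's text also describes controls of other flox and Cre genotypes. The MPP3 WT libraries were from mice of 8 weeks and the MPP3 KO libraries from mice of 8 and 9 weeks, the MPP4 WT libraries from mice of 9 weeks and the MPP4 KO libraries from mice of 8 weeks. All mice were female except 1 male in the MPP4 WT group. MPP3 were sorted as lineage-negative, Sca-1-positive, Kit-positive (LSK) cells that were CD150- CD48+, and MPP4 as LSK cells that were CD150- CD48+ Flt3+. The study's staining panel adds Flt3- to the MPP3 gate. The differing ages of the MPP3 KO mice and the differing sex of the MPP4 WT mice place the libraries of those groups in different mice.

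Multipotent progenitors lie between the hematopoietic stem cell and the committed progenitors, and are told apart by surface proteins. MPP4, also called lymphoid-primed progenitors, carry the cytokine receptor Flt3 and lean to B, T and NK cells, while MPP3 give mostly granulocytes and macrophages. Lineage choice in these cells is read out early in open chromatin: GATA and C/EBP factors open sites of the erythroid, megakaryocyte, mast cell and granulocyte programs, and RUNX factors and E proteins, which bind E-box letters, open sites of lymphoid genes.

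The sequences below are from the called peaks of lineage genes with the largest differences among those with a log2 CPM of 4 or more in the higher cell type, though not from all of these, the first 4 higher in MPP3 and the last 2 higher in MPP4. They are at most 200 bases around the middle of the overlap of the paired peaks, read from the RefSeq GRCm38.p6 sequence (mm10). Capitals mark, on either strand, the letters AGATAA of GATA factors. They also mark TTGCNNAA of C/EBP factors. The letters TGTGGT stand for RUNX factors, and CAGGTG or CAGCTG for the E-box. Of the Mpo window only the 89 bases before the transcript start are shown.
Cebpe downstream peak with 7 matches, chr14:54705883-54706082, plus strand: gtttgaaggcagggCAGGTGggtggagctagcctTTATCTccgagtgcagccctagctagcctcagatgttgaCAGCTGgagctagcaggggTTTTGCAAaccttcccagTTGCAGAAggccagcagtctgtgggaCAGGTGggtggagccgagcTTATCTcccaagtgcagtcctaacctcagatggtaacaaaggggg
Cebpe downstream peak with no match, chr14:54706725-54706924, plus strand: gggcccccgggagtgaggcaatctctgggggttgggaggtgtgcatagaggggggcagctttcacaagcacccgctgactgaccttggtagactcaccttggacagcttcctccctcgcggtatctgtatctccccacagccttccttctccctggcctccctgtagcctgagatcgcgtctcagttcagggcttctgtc
Mpo upstream of the start, chr11:87793492-87793580, plus strand: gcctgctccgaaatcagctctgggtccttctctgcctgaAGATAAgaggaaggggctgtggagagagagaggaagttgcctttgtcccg
Angpt1 exon, chr15:42438186-42438385, plus strand: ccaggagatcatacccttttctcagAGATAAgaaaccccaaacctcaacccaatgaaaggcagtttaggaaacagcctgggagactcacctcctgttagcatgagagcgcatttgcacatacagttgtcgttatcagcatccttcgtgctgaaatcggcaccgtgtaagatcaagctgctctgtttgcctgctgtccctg
Runx3 intron, chr4:135131233-135131432, plus strand: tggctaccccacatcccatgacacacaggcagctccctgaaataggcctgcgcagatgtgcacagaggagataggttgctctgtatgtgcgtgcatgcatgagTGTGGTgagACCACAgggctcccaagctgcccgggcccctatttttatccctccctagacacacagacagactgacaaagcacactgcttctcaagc
Lef1 intron, chr3:131157528-131157727, plus strand: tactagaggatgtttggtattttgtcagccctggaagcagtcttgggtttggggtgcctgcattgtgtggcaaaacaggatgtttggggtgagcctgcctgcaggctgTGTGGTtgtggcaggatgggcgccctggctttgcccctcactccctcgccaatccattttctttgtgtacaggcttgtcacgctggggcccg
The first Cebpe window held 2 GATA, 2 C/EBP and 3 E-box matches and no RUNX match, and the second Cebpe window held none of the 4 motifs. The Mpo and Angpt1 windows each held 1 GATA match. Of the MPP4 windows, Runx3 held 2 RUNX matches 3 bases apart on opposite strands and Lef1 held 1 RUNX match, and neither window held a GATA, C/EBP or E-box match.

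The level of a peak was its log2 CPM, the log2 of its counts scaled to the size of the library (CPM), as the mean over the 4 libraries of a table. The tables hold no value per library and were normalized separately. Each table was therefore centred on its median over the shared peaks (2.68 in MPP3 and 2.82 in MPP4), and the difference was the centred MPP3 level minus the centred MPP4 level, with no test across the tables. Each difference is given as log2 value ± an approximate standard error (SE), rebuilt from the genotype fold change and F statistic of both tables (n = 4 libraries in each). Over all shared peaks the levels correlated with a Pearson r of 0.92, as a description over peaks that share their libraries. The differences had a median of 0.10 and an SD of 0.59, and 91.1% of them were under 1, a 2-fold change.

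A peak was called when its difference was at least 1 and at least 3 SEs. By this rule 2646 peaks were higher in MPP3, which is 4.02% of all shared peaks, and 1910 were higher in MPP4, which is 2.9%. The called peaks had a median difference of 1.36 in the MPP3 direction and of -1.26 in the MPP4 direction. A difference of 4-fold or more was reached by 267 of the 2646 and by 78 of the 1910. The split of the calls, 58.1% in the MPP3 direction, depended on the centring and on the scaling by peak length. It was 30.3% (1571 and 3617 peaks) when the tables were centred on peaks within 1 kb of a transcript start. With the level taken per kb of peak length and centred on all shared peaks, it was 48.0% (677 and 734 peaks).

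WT and KO libraries are separate samples, so the difference was rebuilt in each genotype. Among peaks called higher in MPP3, 2597 of 2646 (98.1%) were above 0 in both genotypes and 1629 (61.6%) were at least 1 in both. Among peaks called higher in MPP4, 1909 of 1910 were below 0 in both genotypes and 1130 (59.2%) were at -1 or below in both. Since the calls used the mean of both genotypes, agreement of signs is partly fixed by the rule. Over all shared peaks, where nothing was selected, the sign was the same in both genotypes for 66.4%, and for 76.0% of the 13455 peaks with a log2 CPM of 4 or more in both tables. The differences in the WT and KO libraries had a Pearson r of 0.45 over all shared peaks and of 0.64 over those higher peaks. Both genotypes of a cell type were counted over the same peak intervals. Unlike widths of paired peaks thus enter both differences alike, and their part in this agreement was not tested. The genotype itself had an FDR under 0.05 in either table at 109 of the peaks called higher in MPP3 (4.12%), at 34 of those called higher in MPP4 (1.78%) and at 489 of all shared peaks (0.743%).

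**Figure D1:**
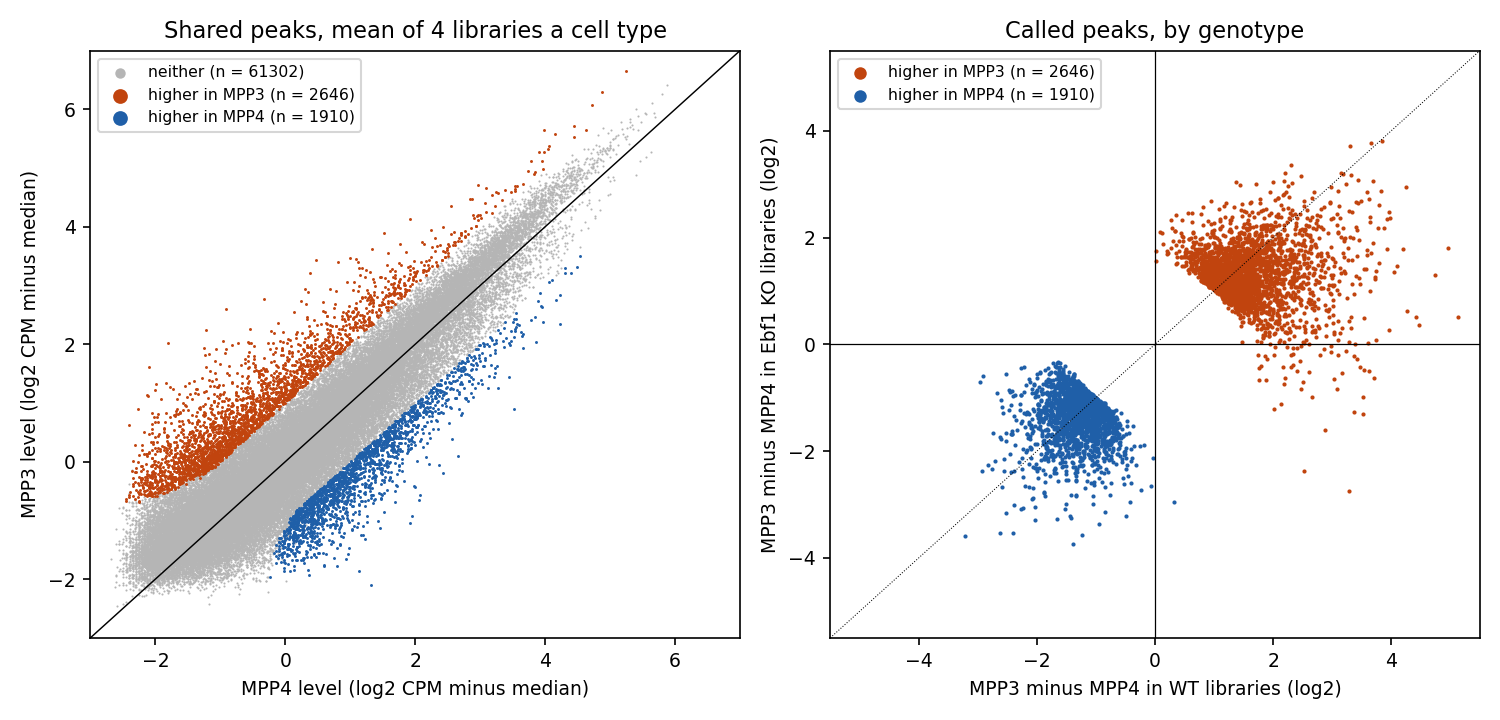
Left, centred log2 CPM of each shared peak in MPP4 (x axis) against MPP3 (y axis), with the 2646 peaks called higher in MPP3 in red and the 1910 called higher in MPP4 in blue. Right, the MPP3 minus MPP4 difference (log2) of the called peaks in the WT libraries (x axis) and the Ebf1 KO libraries (y axis): nearly all lie in the quadrants where both genotypes have the same sign, and 49 red points and 1 blue point do not.

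The labels were checked against genes known to mark each cell type. Of 24 shared peaks at 8 MPP3 marker genes, 20 were above 0 and 4 below, with a median of 0.54, and 5 were called higher in MPP3 and none in MPP4. Of 36 shared peaks at 6 MPP4 marker genes (Rag1 had none), 21 were below 0 and 15 above, with a median of -0.10, and none was called in either direction. Summed levels, which were not centred here or below, were 486 CPM in MPP3 and 364 CPM in MPP4 for the MPP3 markers. For the MPP4 markers they were 613 and 884 CPM. The MPP4 label therefore rested on differences under the threshold, above all at Flt3, the gene that defines the gate. The Flt3 start peak (chr5:147400170-147400648) had a log2 CPM of 5.92 in MPP3 and 7.01 in MPP4, a difference of -0.95 ± 0.10, with -1.14 in the WT and -0.73 in the KO libraries. An intronic Flt3 peak (chr5:147366341) had a difference of -0.99 ± 0.13, and 6 of the 8 Flt3 peaks were below 0. Both missed the call because they were just under 2-fold, not because of their SEs.

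No peak of the other gate genes was called in either direction. The start peak of Kit, the stem cell factor receptor, had a difference of 0.05 ± 0.13, with -0.55 in WT and 0.60 in KO libraries. Values were 0.23 ± 0.48 at the start of Slamf1, which encodes CD150, and -0.26 ± 0.14 at that of Cd34. The only peak of Cd48, an intronic one far from its start, had 0.15 ± 0.29. Away from the starts, an upstream Slamf1 peak had -0.48 ± 0.19, an upstream Cd34 peak 0.52 ± 0.17 and an intronic Kit peak 0.97 ± 0.49. No shared peak was assigned to Ly6a, which encodes Sca-1. Of the MPP4 markers beside Flt3, the start peak of Il7r, the interleukin-7 receptor, had a difference of -0.81 ± 0.25, and the upstream peaks of Dntt, the terminal transferase of antigen receptor genes, went down to -0.90 ± 0.39 (chr19:41019279) with -0.01 in WT and -1.90 in KO libraries. The Dntt peak with the highest level upstream (chr19:41022228) had -0.86 ± 0.14, with -0.70 and -1.07.

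Both sorts were gated on lineage-negative cells, which removes mature cells, and markers of other cell types were counted in the same way. At 3 of 4 erythroid and megakaryocyte markers (Gata1 had no shared peak) all 5 peaks were above 0 and their summed level was 183 CPM in MPP3 and 137 CPM in MPP4. Of these, 3 peaks with 122 and 90.1 CPM were at Itga2b, which was also counted among the MPP3 markers above. At 3 of 5 mast cell and basophil markers (none at Cpa3 and Fcer1a) all 4 peaks were above 0, with summed levels of 21.8 and 14.6 CPM. Dendritic cell and macrophage markers summed to 160 CPM in MPP3 and 256 CPM in MPP4 over 9 peaks, 5 below 0. The 3 peaks of 2 B cell markers were all above 0 as the mean of both genotypes (Cd79a and Ms4a1 had none). This did not hold in each genotype: the 2 Cd79b peaks had 0.77 and 1.65 in WT but -0.16 and -0.31 in KO libraries. T and NK cell markers had 2 of 4 peaks above 0 (Cd3e and Cd8a had none). Stem cell markers summed to 272 and 284 CPM over 30 peaks, while their centred differences had a median of 0.05, with 17 above 0 and 13 below. The part of any such cells in the differences was not tested, and in sorted pools more cells of a type and more open chromatin in each cell cannot be told apart.

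All calls at myeloid genes were in the MPP3 direction, and most peaks of these genes were not called. Of 50 shared peaks at 18 myeloid effector and receptor genes, 8 (16%) were called higher in MPP3 and none in MPP4, against 4.02% and 2.9% of all shared peaks. The median was 0.41, against 0.10 over all shared peaks, and was 0.21 in WT and 0.37 in KO libraries. Mpo, encoding the myeloperoxidase of granule precursors, had 2 called peaks of 3. The peak at its start (chr11:87793348-87794228), whose upstream bases are printed above, had a log2 CPM of 5.98 in MPP3 and 3.95 in MPP4, a difference of 2.16 ± 0.16 or 4.47-fold, with 2.51 in the WT and 1.91 in the KO libraries. A peak 3.2 kb upstream (chr11:87790120-87790466) had the largest difference of the list, 2.62 ± 0.33 (3.82 and 1.34 log2 CPM), with 2.26 in WT and 2.97 in KO libraries. The granule proteases followed the same direction: the start peaks of Ctsg and Elane had 1.65 ± 0.25 and 1.35 ± 0.31, and a peak downstream of Prtn3 had 4.06 and 2.69 log2 CPM, 2.84-fold. The cytokine receptor chain gene Csf2rb (1.61 ± 0.19), the granule membrane protein gene Cd63 (1.39 ± 0.26) and the Fc receptor gene Fcgr3 (1.04 ± 0.28) each had 1 called peak. S100a8 and S100a9 had no shared peak, and the start peak of Csf3r, the G-CSF receptor, had 0.50 ± 0.20.

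Of 42 peaks at 13 myeloid transcription factor genes, 5 (11.9%) were called higher in MPP3 and none in MPP4, against 4.02% and 2.9% of all shared peaks. The list median of 0.13 was near that of all peaks and turned to -0.08 when the tables were centred on transcript starts. The calls came from only 2 genes. Cebpe, a C/EBP factor of late granulocyte maturation, had 3 of its 4 peaks called. The peak chr14:54705731-54706302, the first of the printed windows, had a log2 CPM of 6.23 in MPP3 and 4.39 in MPP4, with a difference of 1.97 ± 0.13 (2.14 in WT, 1.88 in KO). Its neighbour chr14:54706615-54706930 had the largest difference of the list, 2.26 ± 0.27 (2.53 in WT, 2.12 in KO). The third Cebpe peak, upstream of the start, had 1.38 ± 0.35, which turned to -0.15 per kb of peak length. Nfil3, a basic leucine zipper factor, had 2 called peaks of 4 at its start, 1.20 ± 0.19 and 1.00 ± 0.27, and the first of them was -0.03 per kb. At Cebpa, the C/EBP factor of granulocyte-macrophage commitment, the start peak (chr7:35118917-35119478) had 6.40 and 6.10 log2 CPM, with a difference of 0.43 ± 0.11 that was 0.15 in WT and 0.69 in KO libraries. The 7 peaks of Spi1, encoding PU.1, lay between -0.27 and 0.53.

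Peaks of T and NK lineage genes leaned to MPP4. Of 37 peaks at 12 genes, 7 (18.9%) were called higher in MPP4 and 1 (2.70%) in MPP3. Over all shared peaks these shares were 2.9% and 4.02%. The list median was -0.19. The start peak of Zap70, a kinase of the T cell receptor pathway, had the largest difference of the list in the MPP4 direction (chr1:36766933-36767182), 2.66 log2 CPM in MPP3 and 4.38 in MPP4, which is -1.59 ± 0.24. In the WT libraries it was -0.98 and in the KO libraries -2.34. A downstream Zap70 peak had -1.05 ± 0.27. Lef1, an HMG-box factor of early lymphocytes, had called intronic peaks with -1.42 ± 0.17 (-1.35 in WT, -1.50 in KO) and -1.23 ± 0.27, and 6 of its 7 peaks were below 0. Lck, the Src family kinase of T cells, had called peaks at both of its starts, -1.36 ± 0.32 and -1.02 ± 0.33, and Il2rb, a chain of the interleukin-2 and interleukin-15 receptors, had 1 (-1.36 ± 0.25). Tcf7 went the other way at 1 of 5 peaks, 1.66 ± 0.24, with 2.32 in WT and 0.65 in KO libraries. With the WT libraries alone, 3 peaks of the list were called higher in MPP4 in place of 7, and per kb of peak length 2.

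At 11 of 14 lymphoid priming genes with a shared peak, no peak of 44 was called, where 19 were above 0 and 25 below, with a median of -0.18 (Rag1, Rag2 and Ighm had no shared peak). Values at Lax1, an adaptor of lymphocyte receptors, and at Blnk, the B cell linker, reached -0.97. Of 121 peaks at 15 lymphoid transcription factor genes, 4 (3.31%) were called higher in MPP3 and 5 (4.13%) in MPP4. Over all shared peaks these shares were 4.02% and 2.9%. The list median of -0.02 was 0.05 in the WT libraries alone. The intronic Runx3 peak printed above (chr4:135131249-135131417) had 1.63 log2 CPM in MPP3 and 4.73 in MPP4, a difference of -2.96 ± 0.34 or 7.81-fold, with -2.40 in WT and -3.53 in KO libraries. Its MPP4 partner was wider (chr4:135131117-135131543), and the part of the width in this difference was not tested. The other 10 Runx3 peaks lay between -0.62 and 0.88. Mef2c (-1.66 ± 0.50), Tcf12 (-1.57 ± 0.44), Aff3 (-1.35 ± 0.35) and Tcf4 (-1.26 ± 0.15) each had 1 peak called higher in MPP4, all intronic. In the other direction, peaks at the starts of Tcf4 (1.38 ± 0.30) and Tcf12 (1.23 ± 0.24) and intronic peaks of Ikzf1 (1.26 ± 0.19) and Ikzf2 (1.09 ± 0.21) were called higher in MPP3, so Tcf4 and Tcf12 each had a start peak called in one direction and an intronic peak called in the other.

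Of 27 peaks at 10 B lineage genes, 2 (7.41%) were called higher in MPP3 and 1 (3.70%) in MPP4. Over all shared peaks these shares were 4.02% and 2.9%. The list median of -0.10 was 0.17 in the WT libraries alone (Vpreb1, Cd79a and Ms4a1 had no shared peak). The deleted gene Ebf1, encoding the B lineage factor, had 10 shared peaks. The Ebf1 start peak had 0.31 ± 0.25 as the mean of opposite values, 1.64 in WT and -1.01 in KO libraries. The peak beside Igll1, a surrogate light chain gene, had -0.09 ± 0.14, with -0.13 and -0.05.

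All calls at erythroid and megakaryocyte genes were in the MPP3 direction, and they were few. Of 58 peaks at 18 genes, 4 (6.90%) were called higher in MPP3 and none in MPP4, against 4.02% and 2.9% of all shared peaks, with a median of 0.29 that was 0.08 when centred on transcript starts. Called were a peak upstream of Zfpm1, the GATA cofactor FOG-1 (1.60 ± 0.35), the start of the factor gene Nfe2 (1.55 ± 0.28), the start of Pf4, encoding platelet factor 4 (1.21 ± 0.23), and an intronic peak of Cd9 (1.04 ± 0.28). All 5 peaks of Tal1, a factor of stem and erythroid cells, were above 0, between 0.20 and 0.98. A Klf1 peak, at a gene of erythroid maturation, had 0.36. The single shared peak of Gata2 had -0.05 ± 0.14.

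Stem and progenitor genes had calls in both directions, 10 (7.09%) higher in MPP3 and 5 (3.55%) higher in MPP4 of 141 peaks. All shared peaks also had calls in both directions, 4.02% and 2.9%. The list median of -0.01 was 0.06 per kb of peak length and 0.003 with a reciprocal overlap of 50%. Erg, an ETS factor, had 4 of its 21 peaks called higher in MPP3, all intronic, between 1.15 and 1.94, and the largest of these was -0.19 per kb. Angpt1, encoding angiopoietin, a ligand of the Tie2 receptor, had 2. The exonic Angpt1 peak printed above (chr15:42438048-42438532) had the largest difference of the list, 4.22 and 2.33 log2 CPM, 2.02 ± 0.25, with 2.29 in WT and 1.79 in KO libraries. The start of Tie1 (1.91 ± 0.50), an upstream peak of Fli1 (1.40 ± 0.18) and intronic peaks of Runx1 (1.34 ± 0.13) and Mecom (1.07 ± 0.25) completed the 10. Higher in MPP4 were an intronic peak of Hlf (-1.62 ± 0.34, and 0.02 per kb), 2 intronic peaks of Mecom (both -1.54), a peak upstream of Lmo2 (-1.39 ± 0.26) and another intronic peak of Runx1 (-1.06 ± 0.28). Mecom and Runx1 thus had sites called in each direction within the same gene.

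In the lists that follow few peaks were called. For comparison, 4.02% of all shared peaks were called higher in MPP3 and 2.9% higher in MPP4. Of 40 dendritic cell and macrophage marker peaks, the start of Siglech, a marker of plasmacytoid dendritic cells, was called higher in MPP4 (-1.23 ± 0.25, -1.28 in WT and -1.16 in KO) and a Zbtb46 peak higher in MPP3 (1.19 ± 0.36). Of 6 mast cell and basophil peaks 1 was called higher in MPP3, near Ms4a2, the Fc epsilon receptor beta chain (1.26 ± 0.29), and all 6 were above 0. Of 35 peaks at AP-1 and immediate early genes, which respond within minutes to handling and stimulation, 2 (5.71%) were called higher in MPP3, at Jund (1.20 ± 0.16) and Atf3 (1.19 ± 0.30), with a median of 0.30, which was 0.03 in WT and 0.53 in KO libraries. Interferon-response genes had 1 call of 19 peaks, Irf1 (1.33 ± 0.18, and -0.10 per kb), and cell cycle genes 1 of 56, an intronic Ccnd3 peak with 2.19 in WT and 0.04 in KO libraries (1.44 ± 0.41). The medians of these last 2 lists, 0.13 and 0.16, turned to -0.08 and -0.05 when centred on transcript starts. The 8 peaks at Tek and Mt1, genes linked to the Cre transgene, had no call and a median of 0.03, which was 1.04 in WT and -0.02 in KO libraries, -0.18 when centred on transcript starts and -0.12 when centred within bins of level.

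**Figure D2:**
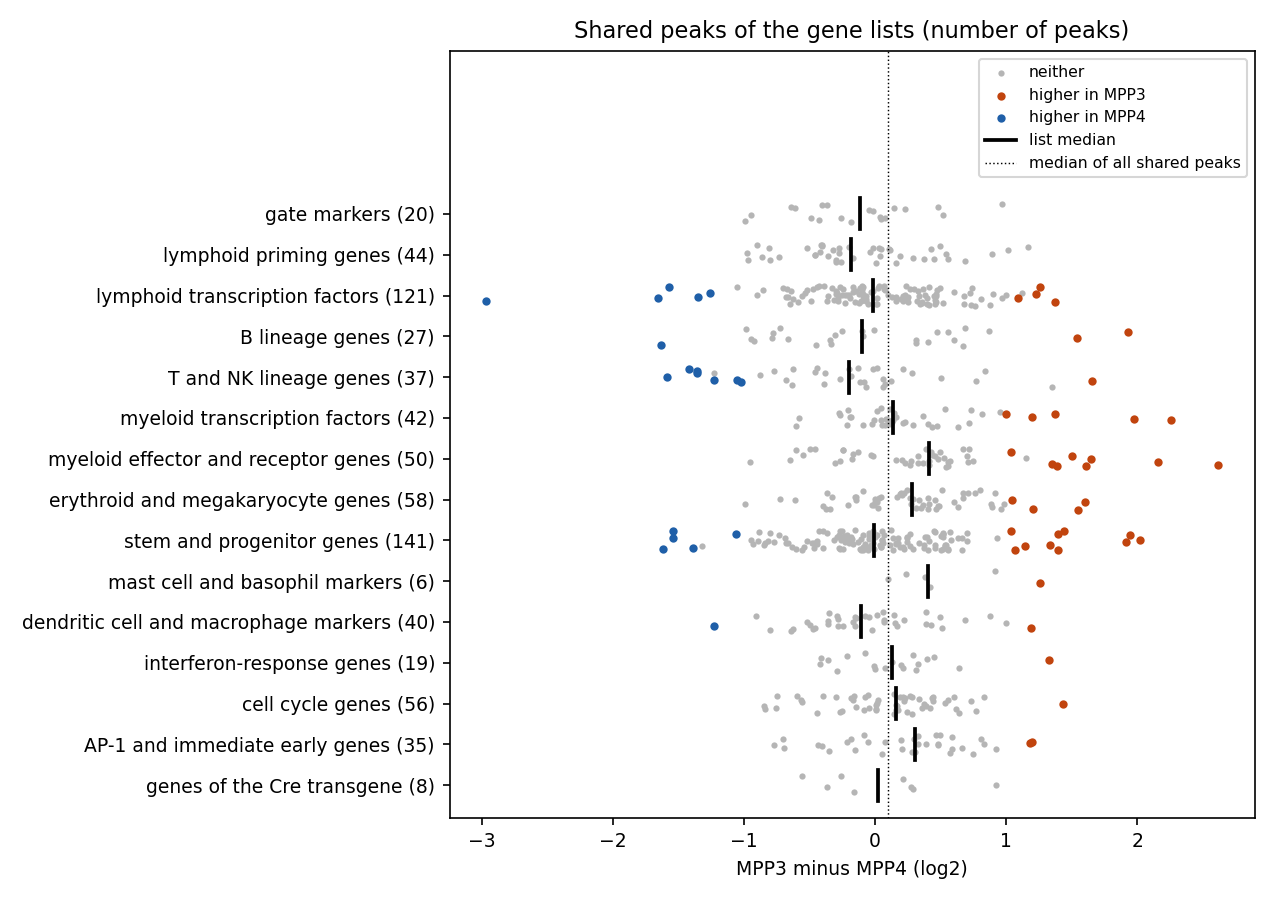
MPP3 minus MPP4 difference (log2, x axis) of each shared peak of the 15 gene lists (y axis, with the number of peaks), red when called higher in MPP3, blue when called higher in MPP4, grey otherwise. Black bars are list medians and the dotted line is the median of all shared peaks, 0.10: the red points of the myeloid lists have no blue counterpart, and blue points outnumber red ones among T and NK lineage genes, 7 to 1.

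Called peaks were assigned to 3322 genes. Of the 517 genes with at least 2 called peaks, 188 had calls higher in MPP3 only, 125 in MPP4 only and 204 in both directions. Neighbours within 10 kb were more uniform: of 651 called peaks with another called peak that close, 513 (78.8%) had the same direction as the nearest one, where the shares of the 2 directions alone would give 51.3%. Gse1, a component of histone deacetylase corepressor complexes, had the most peaks called higher in MPP3 of all genes, 14 of its 48 shared peaks, and 2 called higher in MPP4. The largest differences of these, at a pair of neighbouring intronic peaks, were 2.48 ± 0.16 (chr8:120371713-120372153, 6.16 and 3.82 log2 CPM, 3.35 in WT and 1.98 in KO) and 2.28 ± 0.15 (chr8:120369928-120370384, 6.30 and 4.16 log2 CPM, 2.08 in WT and 2.44 in KO), and both held a GATA match. The Gse1 peaks called higher in MPP4 had -1.76 ± 0.23 and -1.32 ± 0.20. Sfi1, encoding a centrosome protein, had 6 of 11 peaks called higher in MPP3, between 1.35 and 2.18, and Itpr2, an inositol trisphosphate receptor gene, had 5 of 22. The list went on, with 4 called peaks each, with Igf1r, Gfod1, the noncoding gene 2700054A10Rik, Erg, Arid1b and Pde4d, and ended with Sox6, an HMG-box factor of erythroid cells, with 3 of 9. All 3 Sox6 peaks held a GATA match, with differences of 2.58 ± 0.26, 2.01 ± 0.26 and 1.84 ± 0.43. The called peaks of 2700054A10Rik lay in annotated repeats (a median repeat share of 100%), where reads can belong to other copies.

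In the MPP4 direction Mrvi1, encoding a protein bound to the inositol trisphosphate receptor, came first with 6 of 13 peaks and none in MPP3. The highest of these (chr7:110956423-110956880) had 5.15 and 6.66 log2 CPM, a difference of -1.37 ± 0.12, with -1.27 in WT and -1.45 in KO libraries, and the 6 lay between -1.42 and -1.05. Arid1b, a subunit of the SWI/SNF remodelling complex, had 5 peaks called higher in MPP4 and 4 called higher in MPP3 among 45, and so was on both lists. The receptor tyrosine kinase genes Ror1 and Alk, the cell adhesion gene Sdk1 and Maml3, a coactivator of Notch, had 4 each, as did 1700025G04Rik, Gm20388 and Gm14005, and all 3 shared peaks of Asic2, an ion channel gene, were called, between -2.19 and -1.47. The strongest of the Ror1 peaks (chr4:100219593-100219963) had 3.93 and 6.10 log2 CPM, -2.03 ± 0.16. Genes with many peaks can have many calls by their size: Gse1 with 48, Pde4d with 65 and Gm20388 with 59 shared peaks were among them.

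**Figure D3:**
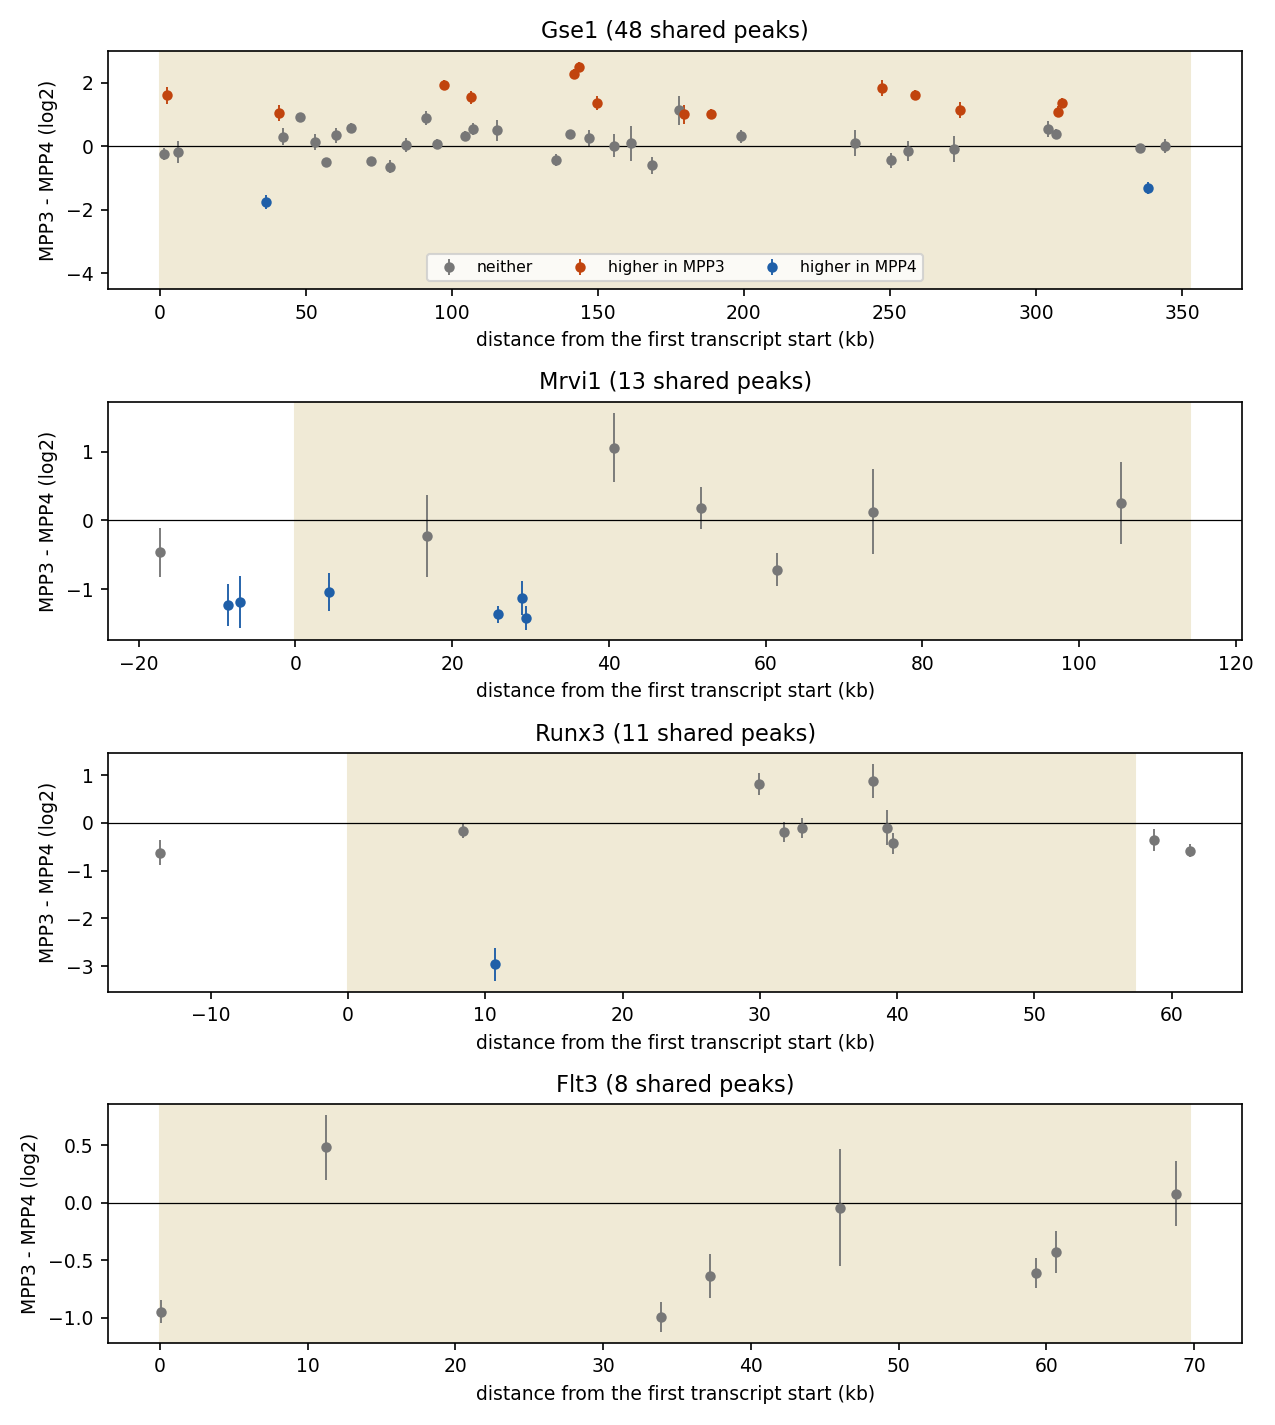
MPP3 minus MPP4 difference (log2, y axis) with ± 1 SE of each shared peak assigned to Gse1, Mrvi1, Runx3 and Flt3, by distance from the gene's first transcript start in kb (x axis), with the gene body shaded. Peaks called higher in MPP3 (red) spread over the whole of Gse1 with 2 blue peaks among them, the 6 blue Mrvi1 peaks lie at -1.05 or below, Runx3 has a single blue peak at -2.96, and the Flt3 peaks reach -0.99 without a call.

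With a minimum log2 CPM of 4 in the higher cell type, the largest difference was at an intronic peak of Gm42936, whose nearest coding start is Tbc1d14 (chr5:36597628-36598179), 4.71 log2 CPM in MPP3 and 1.01 in MPP4. It was 3.83 ± 0.38, or 14.2-fold, and 3.85 and 3.81 in WT and KO libraries. It was followed by an intronic peak of Uhrf1bp1l (3.71 ± 0.45), a peak upstream of the channel gene Asic1 (chr15:99664491-99665107, 3.51 ± 0.26), a peak beside Gm18904 (3.46 ± 0.31) and a peak in Cars (3.19 ± 0.29). The rest of the top 10, at Schip1, near Gadl1, near Epha4, at G430095P16Rik and at Usp40, lay between 3.004 and 3.18. Of these 10, 7 held a GATA match in 200 bp, against 6.68% of all shared peaks. In the MPP4 direction the largest was beside 2610027F03Rik, with En1 as the nearest coding gene (chr1:120683530-120683679, 0.57 and 4.13 log2 CPM), -3.42 ± 0.56. The Runx3 peak came second, before an intronic Cdc27 peak (-2.88 ± 0.33), an intergenic peak (chr4:153728080-153728362, -2.72 ± 0.28) and an intronic Pcsk5 peak (-2.64 ± 0.27). The peak with the highest level of the 10 was near Spry1, a gene of growth factor signalling (chr3:37605861-37606311, 3.58 and 6.34 log2 CPM, -2.62 ± 0.17). The other 4, at Ctdp1, near Npvf, at Gm45213 and at Eepd1, lay between -2.62 and -2.54. Of these 10, 7 held an E-box match, against 28.9% of all shared peaks, 4 a RUNX match, against 25.6%, and none a GATA match. All 20 had the same sign in both genotypes, which their selection by the largest mean differences made nearly certain in advance.

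Peaks called higher in MPP4 were the least often near promoters. Of them, 10.6% lay within 1 kb of a transcript start, against 29.1% of those called higher in MPP3 and 31.2% of those not called. With a reciprocal overlap of 80% these shares were 8.26%, 19.0% and 33.4%, and per kb of peak length 7.90%, 15.2% and 30.9%. Under both settings the MPP3 share was thus also below that of uncalled peaks. Introns held 48.8% of the MPP4, 40.0% of the MPP3 and 35.9% of the uncalled peaks, and intergenic sites 36.9%, 27.2% and 28.7%. The whole distribution moved with position: the 20085 peaks near a transcript start had a median difference of 0.26, while medians were -0.002 for intronic and 0.01 for intergenic peaks. The 67 start peaks of 61 ribosomal protein genes, expressed in every cell, had a median of 0.34 and none was called. The difference also moved with GC content. In the 10% of peaks with the highest GC (66.2% and above) the median was 0.36 and 0.258% were called higher in MPP4, whereas 3.61% were in the 10% with the lowest GC. Calls higher in MPP3 ranged from 3.54% to 4.50% over the deciles. The part of GC content in the differences was not tested. When near and distant peaks were centred apart, 2320 peaks were called higher in MPP3 and 2130 in MPP4.

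**Figure D4:**
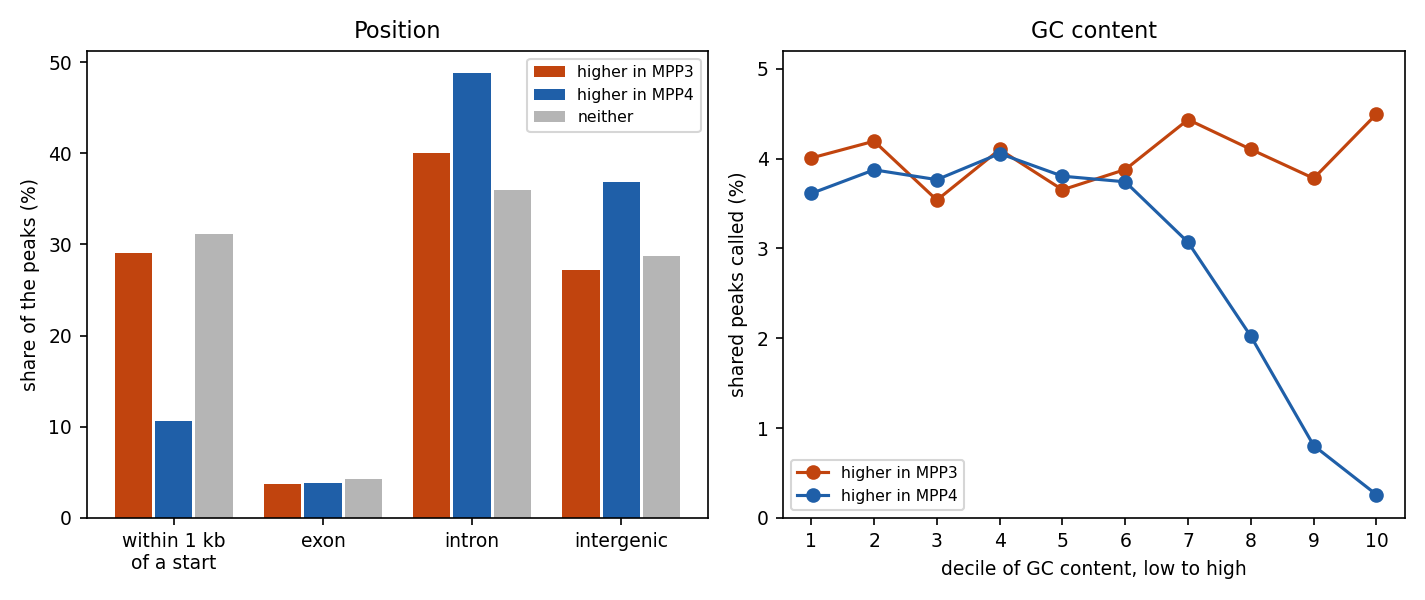
Left, share (%) of peaks higher in MPP3 (red), higher in MPP4 (blue) and in neither (grey) by position, where the blue bar near transcript starts is the lowest at 10.6%. Right, share (%) of shared peaks called in each direction by decile of GC content: calls in the MPP4 direction fell from 3.61% in the lowest to 0.258% in the highest decile.

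Peak width moved with the difference as well. Peaks called higher in MPP3 had a median length of 419 bp in the MPP3 table and 270 bp in the MPP4 table, and those called higher in MPP4 289 bp and 426 bp. Over all shared peaks the log2 ratio of lengths and the difference had a Pearson r of 0.70, as a description. A wider peak collects more fragments, and a stronger peak is called wider, and these cannot be told apart here. With a reciprocal overlap of 80%, which keeps peaks of like width, 632 and 557 peaks were called of 41727.

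The directions differed in the sequence motifs they held. In 200 bp around the middle of the overlap, 22.1% of peaks called higher in MPP3 held AGATAA, the GATA letters, against 3.82% of those called higher in MPP4, 6.10% of those not called and 6.68% of all. The C/EBP letters TTGCNNAA were in 11.9%, 5.29%, 7.96% and 8.04%. The EBF1 letters TCCCNNGGG or CCCNNGGGA were in 6.35%, 2.36%, 4.13% and 4.17%, and the HLF letters TTANGTAA in 2.57%, 0.942%, 1.37% and 1.40%. In the other direction the RUNX letters TGTGGT were in 43.6% of peaks higher in MPP4, against 24.6% of peaks higher in MPP3, 25.1% of the uncalled peaks and 25.6% of all. The E-box letters CAGGTG or CAGCTG were in 47.1%, 25.1%, 28.5% and 28.9%. Smaller differences of the same direction were seen for PU.1 (GAGGAAGT, 11.6% in MPP4, 7.22% in MPP3, 9.19% in uncalled and 9.18% in all peaks), IRF (GAAANNGAA, 8.43%, 4.50%, 6.46% and 6.44%), HOX (TGATTNAT, 3.04%, 1.247%, 1.57% and 1.60%) and MEF2 (CTATTTNTA, 1.78%, 0.756%, 0.809% and 0.835%). All letters were searched on both strands.

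Shares closer to each other were seen for MYB, IKZF and STAT. MYB (TAACNG) was in 19.3% of MPP3 and 18.6% of MPP4 peaks and in 17.8% of all, IKZF (TGGGAA) in 15.2%, 13.8% and 15.0%, and STAT (TTCNNNGAA) in 3.85%, 4.71% and 4.64%. AP-1 letters (TGANTCA) were in 9.75%, 7.33% and 8.31%. CTCF letters (AGNGGGCGC), which mark boundaries of chromatin loops, were in 1.10% and 0.314% of called peaks, and in 3.49% of uncalled peaks and 3.31% of all. The GC box (GGGCGG) of promoters was in 19.0%, 5.81% and 19.97% and the ETS letters CCGGAAGT in 1.13%, 0.681% and 1.64%. The TCF/LEF letters ATCAAAG were in 1.97%, 1.62% and 1.75%, FOX (TGTTTAC) in 2.12%, 1.52% and 2.07%, NF-kB (GGGANTTCC) in 1.13%, 0.733% and 1.27% and NRF1 (GCGCATGCG) in 0.529%, 0.105% and 0.575%.

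The shares were also taken in other sets of peaks. Among distal peaks (over 1 kb from a start) the GATA letters were in 27.1% of peaks higher in MPP3, 3.63% of those higher in MPP4 and 7.43% of uncalled peaks, and among peaks of 45 to 55% GC in 29.6%, 3.75% and 7.53%. With a reciprocal overlap of 80% they were in 30.5%, 3.77% and 6.00%, and per kb of peak length in 37.5%, 3.41% and 6.39%. RUNX letters were in 43.7% of distal MPP4 peaks, 29.2% of MPP3 peaks and 30.3% of uncalled peaks, and E-box letters in 47.1%, 25.9% and 30.1%, and at a reciprocal overlap of 80% in 47.4%, 28.5% and 24.7% for RUNX and 50.1%, 24.2% and 27.7% for the E-box. The RUNX share of MPP3 peaks was thus below that of uncalled peaks among distal peaks and above it at a reciprocal overlap of 80%. PU.1 letters were in 11.6% of distal MPP4 peaks, 7.68% of MPP3 peaks and 11.4% of uncalled peaks. Among peaks of 45 to 55% GC they were in 12.5%, 8.74% and 11.9%. In both sets the PU.1 share of MPP4 peaks was thus near that of uncalled peaks, and the MPP3 share was below both.

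Calls also went with the number of matches. Of distal peaks without GATA letters 3.25% were called higher in MPP3, of 3520 with 1 match 13.2%, and of 186 with 2 or more 23.1%, while calls higher in MPP4 went from 3.91% to 1.73% and 0.538%. For RUNX, calls higher in MPP4 were 3.03%, 4.99% and 6.67% with 0, 1 and 2 or more matches, and for the E-box 2.84%, 5.29% and 7.74%. For PU.1, calls higher in MPP4 were 3.72%, 3.85% and 3.94%, and calls higher in MPP3 were 4.26%, 2.88% and 0.985%. Peaks with both RUNX and E-box letters were called higher in MPP4 at 8.42% (345 of 4095), with RUNX alone at 4.03%, with the E-box alone at 4.64% and with neither at 2.30%. GATA letters went with the MPP3 direction whichever of these was present: distal peaks with GATA and E-box letters were called higher in MPP3 at 12.5% (131 of 1045) and in MPP4 at 23 of 1045, and with GATA and RUNX letters at 14.3% and 2.37%. With GATA and C/EBP letters together, 62 of 367 (16.9%) were called higher in MPP3 and 2 (0.545%) in MPP4. These are descriptions of letters in a window and not of bound factors.

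**Figure D5:**
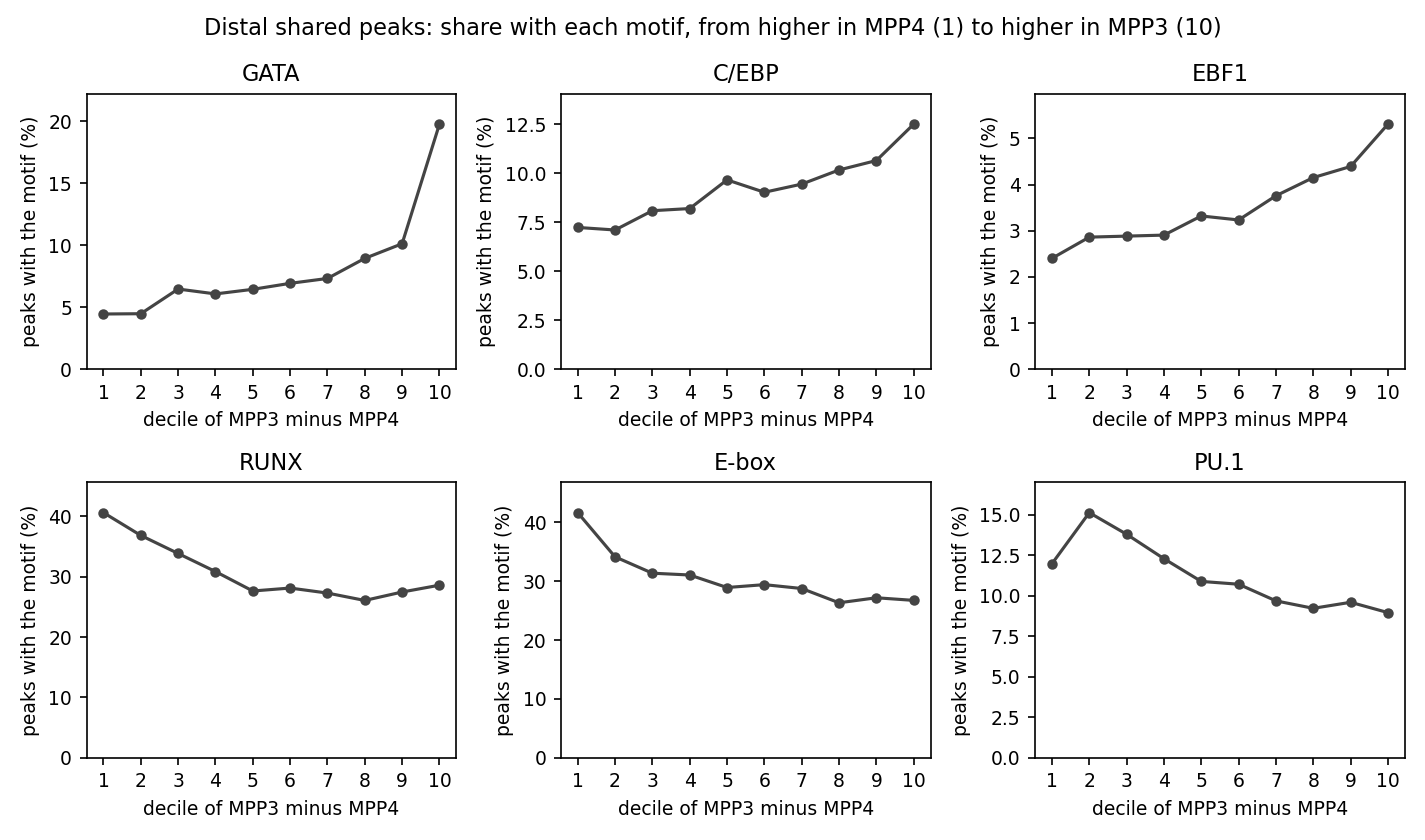
Share (%) of distal shared peaks with each motif (y axis) by decile of the MPP3 minus MPP4 difference (x axis), from peaks higher in MPP4 (decile 1) to peaks higher in MPP3 (decile 10), with 4577 or 4578 peaks in each. GATA letters rose from 4.46% to 19.7%, with most of the rise in the last decile, C/EBP letters from 7.23% to 12.5%, and RUNX and E-box letters fell from 40.6% to 28.6% and from 41.6% to 26.7%.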

How the data were processed

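ATAC-seq was done in 8 libraries, MPP3 and MPP4 with 2 WT and 2 Ebf1 KO libraries each. By their methods and processing notes, the authors trimmed reads with Cutadapt 2.10, aligned them to mm10 with snakePipes, removed duplicates and long fragments, called peaks with MACS2 2.2.7.1 on merged replicates of each condition, merged them into 1 peak set per cell type and fitted edgeR 3.32.0. The tables hold no counts, so the depth of each library is unknown here and no counting interval is given.

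The deposited tables hold, per peak, log2 CPM (the authors' mean over 4 libraries, counts scaled to library size) and the authors' genotype comparison: a log2 fold change, an F score and an FDR (p-value adjusted by the authors). The columns of that comparison were used only to rebuild the error and the level per genotype, and the FDR only for 1 count and 1 alternative. Starts in the files are 0-based and are printed 1-based.

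The SE of a table mean was 0.5 times the absolute fold change over the square root of F (for F under 0.01, the median SE in bins of 0.5 log2 CPM), and the SE of a difference the root of the summed squares. Genes were assigned from GENCODE M21 by the closest transcript within 20 kb upstream and 10 kb downstream. All peaks lay on the 19 autosomes. Of the printed windows, bases in annotated untranslated exons were left out, which left no informative part of the Zap70 window. Some items that these rules name are not reported here. Python 3.11.15, numpy 2.4.6, pandas 2.3.3 and pysam 0.24.0 were used, and matching, errors and calls were tested on simulated tables.

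The members, gene lists and rules were chosen with earlier results of these data known. Named are, per list, the genes with most called peaks and the largest called peak in each direction, the start peaks of the gate markers and of Cebpa, Igll1 and Ebf1, the 10 genes with most called peaks and the 10 largest peaks with a log2 CPM of 4 or more, in each direction. Values of other genes of the lists were added after they were seen. Sharing needs a peak in both tables, so 21784 MPP3 and 21094 MPP4 peaks without a partner, of lower level (median log2 CPM 1.22 and 1.23), are not covered. Alternatives were other overlaps, centrings, filters, thresholds, single genotypes, levels per kb, gene assignments and motif windows.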

Additional observations from a re-analysis of the deposited data

How the results depend on the processing

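The counts of 2646 and 1910 peaks called higher in MPP3 and in MPP4 moved by over 1.5 times under these settings: 632 and 557 with a reciprocal overlap of 80%, 677 and 734 per kb of peak length, 5353 and 4101 with a threshold of 1.5-fold and 3 SEs, and 1404 and 1252 with a log2 CPM of 2 or more in both tables. Centred on peaks within 1 kb of a transcript start, which lowered every difference by 0.21, they were 1571 and 3617. The reciprocal overlap left 41727 peaks and the minimum level 41850 to compare, and the cause was not tested for the others. Under the other 9 settings, 1 of them chosen after seeing the data (near and distant peaks centred apart), both counts stayed within 1.5 times. Centring on transcript starts for the gene lists was also chosen after seeing the data. So were the reciprocal overlap of 80% and levels per kb for the motif shares and the shares near transcript starts. Of the 2063 and 1942 peaks called in the KO libraries alone, 1453 and 1127 were also called in the mean of both genotypes. Of 93 named peaks, 78 of them called, the called ones kept their direction in 9 settings where they were present, except 5 per kb of peak length: Irf1 (-0.10), Hlf (0.019), Nfil3 (-0.034), Cebpe upstream (-0.15) and Erg (-0.19). Of the 93, 68 were present with a reciprocal overlap of 50%, 27 with 80% and 57 with a log2 CPM of 2 or more. Their sizes moved more than their signs: per kb of peak length 18 of the 93 stayed within 1 SE of the main value. Another 70 moved by 1 SE or more without a reversal. Not every setting could reverse a call, which needs a difference of at least 1. Centring on all peaks or on transcript starts shifted every difference by only -0.028 or -0.21. The median of the gate markers (-0.11) was 0.12 when peaks went to the nearest coding start at any distance, that of lymphoid transcription factors (-0.02) was 0.01 with a reciprocal overlap of 50%, that of interferon-response genes (0.13) was -0.10 per kb, and that of cell cycle genes (0.16) was -0.02 in WT libraries. No paired analysis was possible because the tables hold no value per library, and for the same reason no library could be left out in turn. Precision was limited at low levels: the median SE was 0.65 at a mean log2 CPM under 1, where no peak was called, and 0.10 at 6 and above.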
